A study of Mus musculus with 9 samples.

Results

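The hypoxia-inducible factor pathway was examined through 10 genes, chosen by name among the 55487 genes of the deposited gene table. They are the factor subunits Hif1a and Epas1, the oxygen-sensing hydroxylase Egln3, the secreted factors Vegfa and Adm, and the HIF targets Bnip3, Ankrd37, Ddit4, Ndrg1 and P4ha1. RNA-seq was available for 5 control and 4 2-DG libraries of mouse retinal explants. Explants came from wild-type C57BL/6J animals aged 28 days, and the retinas were freed of sclera and retinal pigment epithelium and cultured for 48 h in Neurobasal-A medium with 5 mM glucose. The 2-DG group received 20 mM 2-deoxy-D-glucose, a glucose analog that hexokinase phosphorylates but that cells cannot use further, so that glycolysis is inhibited. The protocol then describes 1 h in Krebs' Ringer medium, after which tissue was frozen for other assays, and states that tissue for RNA-seq was processed at once, so whether the RNA-seq explants had this hour is not clear. The protocol text of the labels names 2-DG for every sample, and the groups were therefore taken from the titles and the treatment label. Per the labels every library belonged to 1 batch, and the samples were biological replicates. The labels used here name no oxygen level for the culture, and the paper lists oxygen supply as a possible limit of its ex vivo retina work.

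HIF-1 and HIF-2 are dimers of an oxygen-regulated alpha subunit, encoded by Hif1a and Epas1, with the constitutive partner ARNT. In the presence of oxygen, prolyl hydroxylases of the EGLN family mark the alpha subunit, the VHL ligase binds the marked protein and the proteasome removes it, so that control lies mainly at the protein and not at the mRNA. In low oxygen the dimer binds a short core element in DNA and raises genes for glycolysis, vessel growth, mitochondrial removal and matrix modification. In the retina the pathway is known for driving vessel growth, and the gene products of Vegfa and Adm act on endothelial cells.

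All 10 genes were measured and passed the filter on low counts, with 44 counts or more in every library. No member changed between the groups at an adjusted p of 0.05 in edgeR's quasi-likelihood test, against 0.0% of the 21049 genes tested (0 genes). At an unadjusted p of 0.05, 0 of 10 members and 7.25% of all genes (1526) passed. Groups that did not overlap were found for 0 of 10 members and for 2.93% of all genes. The log2 fold change of 2-DG against control was above 0 for 4 members and below 0 for 6, and ran from -0.59 for Egln3 to 0.42 for Hif1a. Its median was -0.07, beside -0.01 over all genes tested. Standard errors were between 0.20 for P4ha1 and 0.99 for Adm, so that the size of change that could be seen differed widely between members. What stood out was a split among the 2-DG libraries. Adm and Egln3 were below every control in 2-DG replicates 1, 2 and 3, as were 4.63% of the genes tested. Both were high in 2-DG replicate 4.

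**Figure D1:**
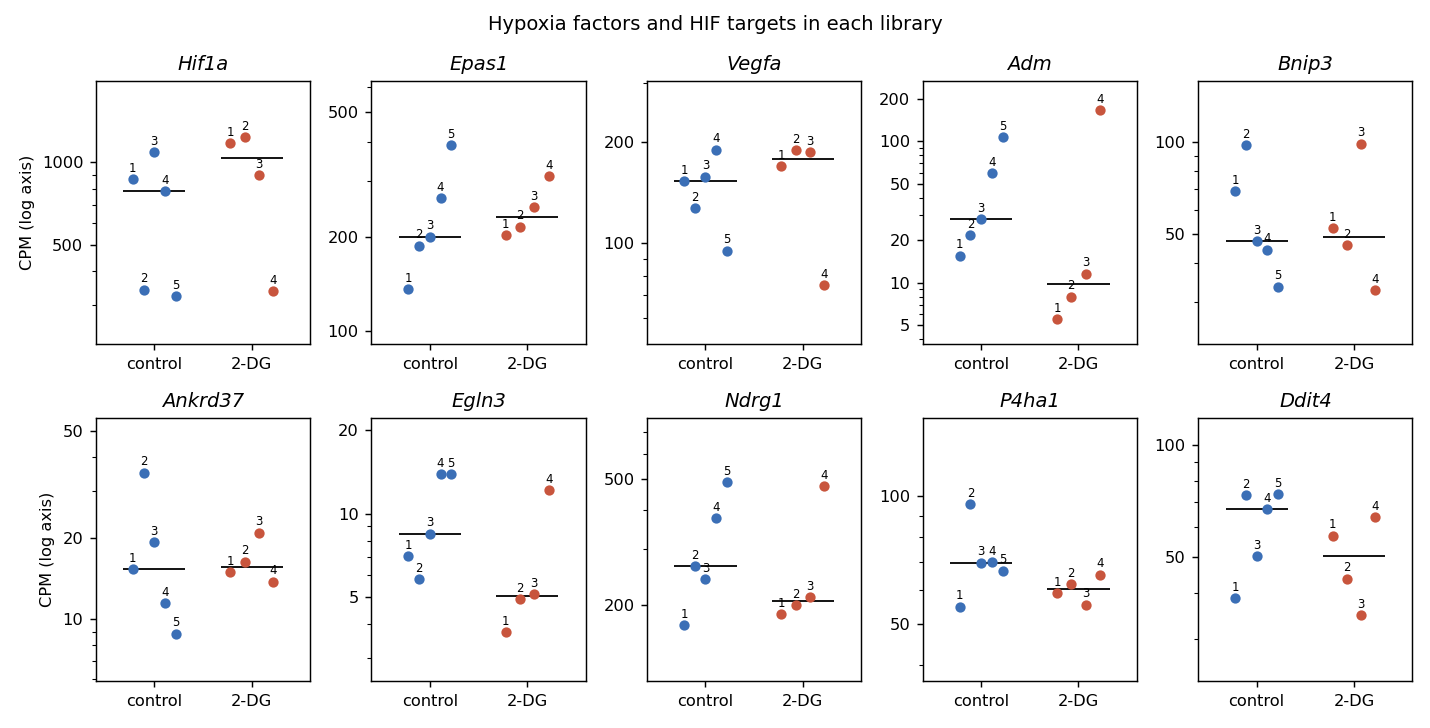
CPM (counts scaled to library size, log axis) of each member in the 5 control and 4 2-DG libraries, with the replicate number above each point and a line at the group median. The groups overlap for all 10 genes, and for Adm the 2-DG libraries span 5.52 to 167 CPM.

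The libraries held 11318087 to 51802230 estimated counts, and 3 counts corresponded to 0.0556 to 0.255 CPM. Rod markers were the most abundant of the marker lists in every library, with a summed level of 4600 to 14790 CPM in 8 libraries and of 39849 CPM in control replicate 2. All 7 endothelial markers (Pecam1, Cldn5, Cdh5, Tek, Tie1, Esam and Emcn) were detected, and their sum was 251, 509, 458, 1242 and 2416 CPM in control replicates 1 to 5 and 681, 520, 1115 and 3619 CPM in 2-DG replicates 1 to 4. The 6 markers of Müller glia summed to 1719 to 6616 CPM in the controls and to 817, 1031, 3395 and 1982 CPM in 2-DG. Retinal pigment epithelium markers summed to 149 CPM in 2-DG replicate 3 and to 1.70 to 24.1 CPM elsewhere, although this layer was removed at dissection. A lower level in these bulk samples can come from fewer cells of a type or from less RNA per cell, which cannot be told apart.

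The core element that HIF dimers bind is ACGTG or GCGTG. RefSeq promoters on GRCm38.p6, taken as 250 bases before to 50 bases after a start site, were found for 8 of the 10 members (Hif1a, Vegfa, Adm, Bnip3, Ankrd37, Egln3, P4ha1 and Ddit4). ACGTG was present on either strand in 6 of the 8, against 19.6% of 32851 promoters of that length, and GCGTG in 5 of the 8, against 32.4%. The stretches around each ACGTG follow because they carry this core element, which is shown in capitals on the strand of the gene. The palindrome CACGTG holds the element once on each strand, overlapping, and CACGT is ACGTG on the other strand.
Hif1a, chr12:73907708-73907761, plus strand, 135 bases upstream of the start site: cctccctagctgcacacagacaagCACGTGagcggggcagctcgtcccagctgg
Hif1a, chr12:73907773-73907825, plus strand, 70 bases upstream: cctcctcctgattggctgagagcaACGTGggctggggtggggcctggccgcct
Bnip3, chr7:138909585-138909638, minus strand, 108 bases upstream: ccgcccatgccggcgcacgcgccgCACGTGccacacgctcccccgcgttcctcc
Ankrd37, chr8:46000063-46000100, minus strand, 241 bases upstream: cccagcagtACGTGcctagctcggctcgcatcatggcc
Ankrd37, chr8:45999851-45999880, minus strand, 6 bases upstream: ggctgcacatgtcagtgtttgggtACGTGa
Egln3, chr12:54204075-54204124, minus strand, 229 bases upstream: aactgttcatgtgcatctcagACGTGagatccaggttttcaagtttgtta
P4ha1, chr10:59323256-59323295, plus strand, 16 bases upstream: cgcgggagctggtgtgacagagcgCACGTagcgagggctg
Ddit4, chr10:59951929-59951981, minus strand, 187 bases upstream: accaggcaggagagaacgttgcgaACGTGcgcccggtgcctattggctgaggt
In the Adm promoter ACGTG was not found and GCGTG occurred at 2 positions, 90 and 54 bases upstream, whereas the Vegfa window held neither. The Hif1a window was set at a start site at 73907867, near the start of transcript Hif1a-201 (73907904). It does not cover the start of transcript Hif1a-202 (73901375). A match to 5 letters describes the sequence and does not show binding. The members with ACGTG include Egln3, with the lowest fold change of the 10, and Hif1a, with the highest.

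Per kilobase of transcript, Hif1a had the highest level in control explants, 165 ± 73.5 CPM per kb (SD, n = 5). Ndrg1 followed with 112 ± 50.1, Vegfa with 83.9 ± 17.7 and Epas1 with 45.2 ± 21.4 CPM per kb. Bnip3 (38.8 ± 17.7), Adm (35.8 ± 31.1), Ddit4 (35.7 ± 10.6), Ankrd37 (26.2 ± 14.9) and P4ha1 (24.4 ± 5.61) were lower, and Egln3 was the lowest at 3.81 ± 1.63 CPM per kb. Along this order only the steps from Vegfa to Epas1 and from P4ha1 to Egln3 were larger than the SD of both neighbours. In 2-DG explants Hif1a was again the highest, at 210 ± 84.1 CPM per kb (SD, n = 4), and Egln3 the lowest, at 2.50 ± 1.70 CPM per kb.

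Hif1a (ENSMUSG00000021109, GRCm38 chr12:73901375-73947530, plus strand) encodes the alpha subunit of HIF-1. It was measured at 868, 342, 1086, 783 and 324 CPM in control replicates 1 to 5 and at 1172, 1239, 899 and 337 CPM in 2-DG replicates 1 to 4. Control replicates 2 and 5 and 2-DG replicate 4 formed a low level in both groups, and the other 6 libraries ranged from 783 to 1239 CPM. Its log2 fold change was 0.42 ± 0.47 (SE), with an adjusted p of 0.855 in edgeR. Leaving out 1 library at a time moved it between 0.24 and 0.70, always above 0. The exons of Hif1a overlap those of the antisense gene Gm15283 and of Gm49321 on the same strand, which averaged 1.32 and 1.22 CPM beside 783 CPM for Hif1a.

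Hif1a-201, which encodes 836 codons, and Hif1a-202, which starts upstream and encodes 810 codons, held 65.3% and 33.0% of the transcript CPM of the gene. The Hif1a-202 share in control explants was 31.1% ± 6.86 (SD, n = 5). With 2-DG it was 36.1% ± 2.75 (SD, n = 4), and the groups overlapped. Hif1a-202 was at 228, 154, 375, 185 and 109 CPM in control and at 349, 412, 303 and 157 CPM in 2-DG libraries. Its log2 fold change of 0.54 ± 0.39 had the smallest unadjusted p of the 20 member transcripts with at least 5% of their gene, 0.199 in edgeR. Without control replicate 3, its highest control, it was 0.85 (unadjusted p 0.041, adjusted p 0.965 in edgeR), and without 2-DG replicate 2 it was 0.36. Hif1a-201 had the same 3 low libraries as the gene (225, 272 and 233 CPM), with a log2 fold change of 0.21 ± 0.42 that ran from 0.04 without control replicate 2 to 0.47 without 2-DG replicate 4.

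Epas1 (ENSMUSG00000024140, chr17:86753700-86833410, plus strand) encodes the alpha subunit of HIF-2, which is prominent in endothelium. It was at 136, 187, 200, 265 and 392 CPM in control and at 202, 215, 248 and 312 CPM in 2-DG libraries. All 4 2-DG values lay within the control range, and the log2 fold change was 0.05 ± 0.31 (edgeR adjusted p 0.977). Its sign turned in 4 of the 9 fits without 1 library. Control replicates 4 and 5 and 2-DG replicate 4, the libraries with the highest sums of the 7 endothelial markers, also had the highest Epas1. The genes most like Epas1 over the 9 libraries, by Pearson's r of log2 CPM among 16010 protein-coding genes, were Des (r = 0.975, rho = 0.967), Angptl4 (0.970 and 0.967) and Alox12 (0.968 and 0.933). Without the 2 libraries farthest from the Epas1 median these r were 0.951, 0.922 and 0.932. For Hif1a they were Qpct (r = 0.995, rho = 0.983), Paqr3 (0.994 and 0.917) and Plcl1 (0.991 and 0.950), at 0.991, 0.991 and 0.987 without the 2 farthest libraries.

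Egln3 (ENSMUSG00000035105, chr12:54178981-54203860, minus strand) encodes PHD3, a prolyl hydroxylase that marks HIF alpha subunits and is itself a HIF target. It was at 7.04, 5.80, 8.47, 13.9 and 13.9 CPM in control and at 3.73, 4.92, 5.13 and 12.2 CPM in 2-DG libraries, from 44 to 526 counts. 3 of the 4 2-DG libraries were below the lowest control, and 2-DG replicate 4 reached the level of control replicates 4 and 5. Over all 9 libraries the log2 fold change was -0.59 ± 0.43, with an adjusted p of 0.793, and it stayed below 0 without any 1 library (-1.09 to -0.40). Its single tested transcript, Egln3-201 of 239 codons, gave -0.60 ± 0.50, and -0.39 without 2-DG replicate 1 or -1.18 without 2-DG replicate 4 (unadjusted p 0.0255, adjusted p 0.656 in edgeR).

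The other sensors and partners of the pathway were a list of 8 genes, of which 0 passed in either direction at an adjusted or an unadjusted p of 0.05 in edgeR, and whose median log2 fold change was 0.23. Hif1an, the asparagine hydroxylase that limits HIF activity, had the smallest p among those above 0 (0.34 ± 0.21, adjusted p 0.770), followed by Arnt, the common partner subunit (0.30 ± 0.21, adjusted p 0.783). Cited2, a HIF target that competes for the coactivator p300, was at -0.07 ± 0.23 and Egln1, the main prolyl hydroxylase, at -0.02 ± 0.29. Thus Egln3 had the lowest fold change among the sensors, without passing the test.

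Vegfa (ENSMUSG00000023951, chr17:46016993-46032369, minus strand) encodes the growth factor that drives vessel sprouting and is made in the retina largely by glia. It was at 153, 127, 158, 190 and 95.2 CPM in control and at 170, 189, 187 and 75.2 CPM in 2-DG libraries. 2-DG replicates 1, 2 and 3 lay in the upper part of the control range, and 2-DG replicate 4 lay below every control. Between the groups Vegfa differed by 0.10 ± 0.31 on the log2 scale (edgeR adjusted p 0.949), and by -0.03 (without control replicate 5) to 0.33 without 1 library. The Müller glia sum was 817 and 1031 CPM in 2-DG replicates 1 and 2, below every control, where Vegfa was at 170 and 189 CPM, and the part of cell makeup in the Vegfa level was not tested. The genes most like Vegfa were 1190002N15Rik (r = 0.967, rho = 0.783), Cry2 (0.965 and 0.817) and Hlf (0.954 and 0.733), which fell to r of 0.836, 0.750 and 0.716 without the 2 farthest libraries, 2-DG replicate 4 and control replicate 5.

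Vegfa-202, of 368 codons, held 47.5% of the gene's transcript CPM, Vegfa-201, of 146 codons, 30.9%, and the retained-intron transcript Vegfa-205 8.91%. The short coding transcript Vegfa-201 was at 34.6, 84.6, 47.7, 43.6 and 48.2 CPM in control and at 47.2, 43.8, 40 and 25.7 CPM in 2-DG libraries, with a log2 fold change of -0.40 ± 0.31, or -0.15 without control replicate 2 and -0.23 without 2-DG replicate 4. Vegfa-202 gave -0.28 ± 0.30, and -0.03 without control replicate 4 or -0.43 without control replicate 2. Vegfa-205 gave 0.50 ± 0.55, with 0.24 to 0.81 without 1 library (lowest without 2-DG replicate 3 and highest without 2-DG replicate 4). No share of a Vegfa transcript separated the groups, since Vegfa-201 took 20.9% to 55.0% of the gene in control and 26.4% to 32.8% in 2-DG libraries. Of the 13 annotated Vegfa transcripts 10 were in the table, and the others were not analysed here.

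Adm (ENSMUSG00000030790, chr7:110627661-110629820, plus strand) encodes adrenomedullin, a vasodilator peptide and an established HIF target made by endothelium among other cells. It was at 15.6, 21.7, 28.1, 60.0 and 107 CPM in control and at 5.52, 8, 11.6 and 167 CPM in 2-DG libraries. 2-DG replicates 1, 2 and 3 were below every control, and 2-DG replicate 4 was above every control, so that the 2-DG libraries differed 30.2-fold among themselves. Over all 9 libraries its log2 fold change was 0.05 ± 0.99 (adjusted p 0.994 in edgeR), and 2 standard errors either side of it reach from -1.93 to 2.02. The spread among the 2-DG libraries thus left the direction of Adm unresolved. Adm-201, of 184 codons, held 99.4% of the transcript CPM and followed the gene (0.09 ± 1.06).

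The values of Adm and Egln3 depended on 2-DG replicate 4. Without it the log2 fold change was -2.46 for Adm (unadjusted p 0.00421, adjusted p 0.291 in edgeR) and -1.09 for Egln3 (unadjusted p 0.019, adjusted p 0.319), which are the 2 of 10 members under an unadjusted p of 0.05, against 12.9% of all genes in that fit. Being below every control in 2-DG replicates 1 to 3 was shared by 4.63% of the genes tested, a description chosen after the values were seen. A limma-voom fit with sample quality weights sets each weight from how far a library lies from its group in these same data. The weights are therefore no separate measure of library quality. This fit gave 2-DG replicate 4 a weight of 0.263 and control replicate 2 one of 0.275, beside 4.18 for 2-DG replicate 1. There Adm (-2.34, adjusted p 0.0455) and Egln3 (-1.26, adjusted p 0.0369) were both called, 2 of 10 members against 5.81% of all genes. At an unadjusted p of 0.05 this fit had 3 of 10 members, with Ndrg1 (-0.56) as the third, against 26.0% of all genes. The direction for Adm also turned without control replicate 1 (-0.18), 2 (-0.13) or 3 (-0.10), with values near 0, so that 4 of the 9 fits without 1 library were below 0, whereas Egln3 was below 0 in all 9. The calls were made in limma-voom, which differs from the main test in method and in the weight of every library, and were not made in edgeR without 2-DG replicate 4.

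**Figure D2:**
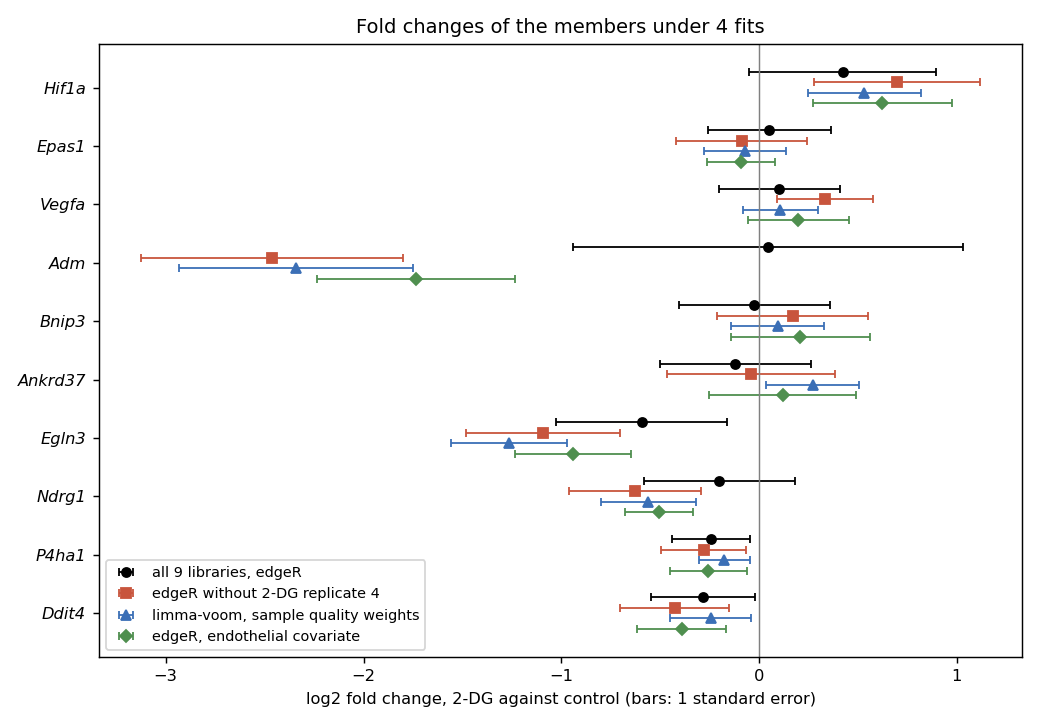
Log2 fold change of 2-DG against control for each member, with bars of 1 standard error, in edgeR on all 9 libraries, edgeR without 2-DG replicate 4, limma-voom with sample quality weights, and edgeR with the endothelial marker sum as covariate. Adm moves from 0.05 to between -2.46 and -1.73 and Egln3 from -0.59 to between -1.26 and -0.94, whereas Hif1a is above 0 and P4ha1 and Ddit4 are below 0 in all 4 fits.

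Adm was compared with the sum of the 7 endothelial markers. Control replicates 4 and 5 had the highest Adm and the highest sums of the controls, and 6 of the 7 markers, all but Cldn5, were highest in 2-DG replicate 4. Other vascular genes followed the sum in part. Of the 12 VEGF ligands, VEGF receptors and adrenomedullin receptors, 4 (Vegfc, Pgf, Flt4 and Nrp2) had 2-DG replicate 4 and control replicates 4 and 5 as their 3 highest libraries. That order was shown by 8.8% of the genes tested. The VEGF receptor Kdr was at 97.8, 66.8, 107, 82.2 and 109 CPM in control and at 64.8, 65.5, 174 and 50.2 CPM in 2-DG libraries, so that it was lowest in 2-DG replicate 4. Flt1, a second VEGF receptor, was at 139 CPM there, below control replicate 5 (170 CPM) and 2-DG replicate 3 (161 CPM), and the pericyte marker sum was 141 CPM beside 97.7 to 269 CPM elsewhere. Per 100 CPM of the endothelial marker sum, Adm was at 6.21, 4.27, 6.14, 4.83 and 4.43 CPM in control replicates 1 to 5, 5.17 ± 0.936 (SD, n = 5). In 2-DG replicates 1 to 3 it was at 0.810, 1.54 and 1.04 CPM, and in 2-DG replicate 4 at 4.61 CPM, inside the control range. Adm itself spanned 6.85-fold over the controls, and 2-DG replicate 4 had both the highest Adm and the highest marker sum. The ratio was chosen after the values were seen, and the part of the endothelial signal in the Adm level was not tested. Egln3 on the same scale was at 2.80, 1.14, 1.85, 1.12 and 0.576 CPM in control and at 0.549, 0.946, 0.460 and 0.337 CPM in 2-DG libraries, with overlapping groups and 3 of 4 2-DG values below the lowest control. A lower ratio with 2-DG was not particular to Adm and Egln3, and the marker sum that divides it had a higher mean in 2-DG (1484 ± 1446 CPM, SD, n = 4) than in control explants (975 ± 888 CPM, SD, n = 5). All 10 members had a lower mean ratio with 2-DG, and for 7 of 10 (Adm, Bnip3, Ankrd37, Egln3, Ndrg1, P4ha1 and Ddit4) every 2-DG library was below the control mean.

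**Figure D3:**
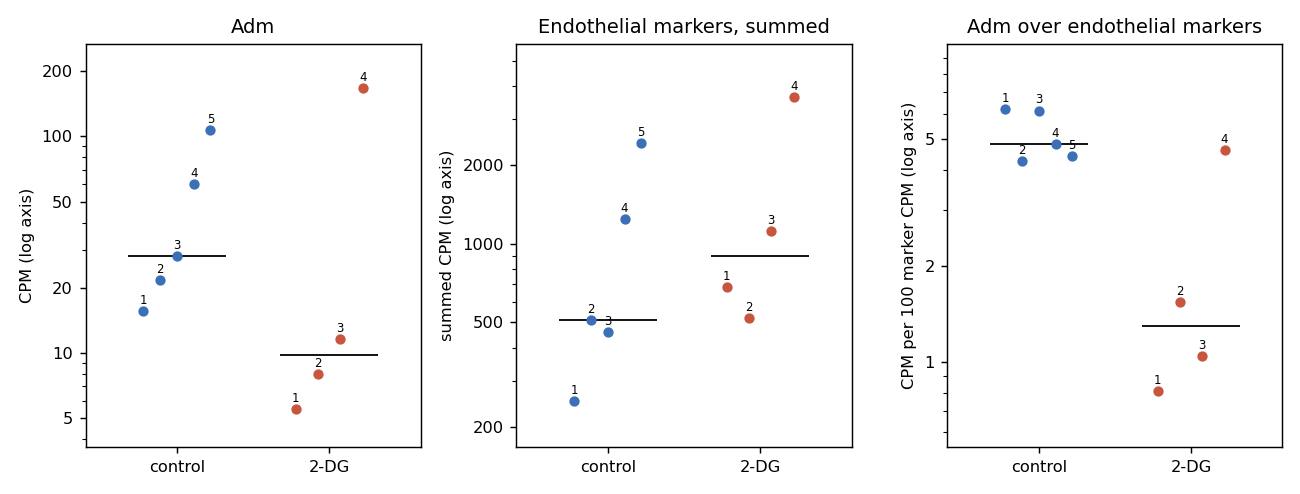
Adm in CPM, the summed CPM of 7 endothelial markers, and Adm per 100 CPM of that sum, on log axes, for each library (replicate numbers above the points, lines at group medians). The controls lie between 4.27 and 6.21 in the right panel, 2-DG replicates 1 to 3 between 0.810 and 1.54 and 2-DG replicate 4 at 4.61.

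With the log2 endothelial marker sum as a covariate, a fit added after these values were seen, the log2 fold change was -1.73 for Adm (adjusted p 0.164 in edgeR), -0.94 for Egln3 (adjusted p 0.179) and -0.51 for Ndrg1 (adjusted p 0.202). These 3 members were under an unadjusted p of 0.05, against 17.4% of all genes, and 0 passed the adjusted threshold. The genes most like Adm over the 9 libraries were Cdkn2aipnl (r = 0.983, rho = 0.983), Trim69 (0.983 and 0.983) and Baz1a (0.979 and 0.950), with r of 0.953, 0.958 and 0.942 without 2-DG replicate 4 and control replicate 5.

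The further VEGF ligands, VEGF receptors and adrenomedullin receptors were 12 genes, of which 0 passed the adjusted threshold, and whose median log2 fold change was 0.29. Ramp2, the partner protein that makes the calcitonin receptor-like receptor an adrenomedullin receptor, was at 11, 6.66, 21.8, 13.2 and 24.2 CPM in control and at 34.3, 26.6, 48.1 and 32.5 CPM in 2-DG libraries. Each 2-DG library exceeded each control, as for 2.93% of all genes whose groups did not overlap in either direction. The log2 fold change of Ramp2 was 1.20 ± 0.37, with an unadjusted p of 0.00794 and an adjusted p of 0.536 in edgeR, so that it did not pass. The lymphatic ligand Vegfd (0.99 ± 0.57) came next among those above 0, and Vegfc (-0.39) and the main VEGF receptor Kdr (-0.06) had the smallest p among those below 0.

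Bnip3 (ENSMUSG00000078566, chr7:138890836-138909519, minus strand) encodes a mitophagy receptor of the outer mitochondrial membrane. It was at 68.8, 97.7, 47.3, 44.4 and 33.6 CPM in control and at 52.1, 45.9, 98.6 and 32.7 CPM in 2-DG libraries. 1 library of each group, control replicate 2 and 2-DG replicate 3, stood at 97.7 and 98.6 CPM, and the others were between 32.7 and 68.8 CPM. Its log2 fold change was -0.02 ± 0.38 (edgeR adjusted p 0.991), and its sign turned in 5 of the 9 fits without 1 library. Those high libraries also had, respectively, the highest rod marker sum and the highest pigment epithelium marker sum, and the part of either in Bnip3 was not tested. Among 6 further mitophagy genes 0 passed at an adjusted or an unadjusted p of 0.05, and the median was -0.09. Bnip3l, the close paralog of Bnip3, was at 0.37 ± 0.20 (adjusted p 0.737 in edgeR) and the prohibitin Phb2 at 0.18 ± 0.21, whereas the mitophagy receptors Bcl2l13 (-0.19 ± 0.19) and Fundc1 (-0.14 ± 0.21) had the smallest p among those below 0.

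Ankrd37 (ENSMUSG00000050914, chr8:45996902-46005707, minus strand) encodes a small ankyrin repeat protein that is widely used in signatures of hypoxia. It was at 15.4, 35.1, 19.4, 11.5 and 8.85 CPM in control and at 15, 16.4, 21.0 and 13.8 CPM in 2-DG libraries. The 2-DG values lay within the control range, which control replicate 2 extended upward, and the log2 fold change was -0.12 ± 0.38 (edgeR adjusted p 0.953). Without control replicate 2 it was 0.27. Retained-intron transcripts, 3 in number, held 58.0% of the transcript CPM, and the coding transcript Ankrd37-201, of 159 codons, 30.2%. Its exons overlap those of Ufsp2 (33.3 CPM on average) and Lrp2bp (13.3 CPM) on the opposite strand, levels near or above the 17.4 CPM of Ankrd37. Whether the counting used the strand is not given in the sources used here, so the Ankrd37 value is uncertain.

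Ddit4 (ENSMUSG00000020108, chr10:59949669-59951834, minus strand) encodes REDD1, which restrains the growth kinase mTORC1 under low oxygen, energy stress and glucocorticoids. It was at 38.8, 73.1, 50.2, 67.1 and 73.8 CPM in control and at 57.0, 43.7, 34.8 and 63.8 CPM in 2-DG libraries. 3 of 4 2-DG libraries were below the control mean, with overlapping groups, and the log2 fold change was -0.28 ± 0.26 (edgeR adjusted p 0.832). It stayed below 0 without any 1 library, between -0.43 and -0.14. Of 8 related brakes on mTORC1 0 passed the adjusted threshold (median 0.07). Ddit4l, the paralog of Ddit4, had 23.4 ± 14.6 CPM in the controls (SD, n = 5) and 9.60 ± 2.71 CPM with 2-DG (SD, n = 4), with control replicate 2 at 3.79 CPM, below every 2-DG library (7.18 to 13.5 CPM), and the other controls at 16.2 to 43.3 CPM. Its log2 fold change was -1.28 ± 0.55 with an unadjusted p of 0.0396 and an adjusted p of 0.676 in edgeR. Tsc2 (-0.48), Tsc1 (0.47) and Akt1s1 (0.43) were the others of smallest p.

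Ndrg1 (ENSMUSG00000005125, chr15:66929318-66969640, minus strand) encodes a stress-responsive protein of the N-myc downstream-regulated family that hypoxia raises in many cells. It was at 173, 265, 242, 375 and 487 CPM in control and at 187, 200, 212 and 474 CPM in 2-DG libraries. 2-DG replicates 1, 2 and 3 were close to each other and above only the lowest control, whereas 2-DG replicate 4 was near the highest control. Ndrg1 gave a log2 fold change of -0.20 ± 0.38 (edgeR adjusted p 0.916), and between -0.63 (without 2-DG replicate 4) and 0.02 (without control replicate 5) when 1 library was left out. Ndrg1-201, of 394 codons, held 98.0% of the transcript CPM. Of the other 3 family members 0 passed at an adjusted or an unadjusted p of 0.05, with Ndrg2, a member expressed in glia, at -0.74 ± 0.52 (adjusted p 0.790), Ndrg3 at -0.27 and Ndrg4 at 0.25.

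P4ha1 (ENSMUSG00000019916, chr10:59323296-59373304, plus strand) encodes the catalytic alpha subunit of collagen prolyl 4-hydroxylase, an enzyme that needs oxygen and oxoglutarate. It had the smallest range over the libraries (1.75-fold), at 54.9, 96.0, 69.7, 69.9 and 66.8 CPM in control and at 59.0, 62.0, 55.5 and 65.3 CPM in 2-DG libraries. All 4 2-DG libraries were below the control mean of 71.5 CPM but above the lowest control. Its log2 fold change was -0.24 ± 0.20 (edgeR adjusted p 0.820), and 2 standard errors either side reach from -0.64 to 0.15, the narrowest interval of the 10. Without control replicate 2, the highest library, it was -0.11, and without each other library -0.32 to -0.20. P4ha1-201 and P4ha1-203, both of 534 codons, held 24.6% and 53.1% of the transcript CPM, and P4ha1-202, of 454 codons, 22.3%. P4ha1-202 was at 0 in 2-DG replicate 3 and at 8.04 to 35.8 CPM in the other libraries.

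P4hb, the beta subunit of the enzyme that P4ha1 belongs to and also the endoplasmic reticulum chaperone protein disulfide isomerase, was at 202, 171, 190, 221 and 232 CPM in control and at 349, 366, 343 and 451 CPM in 2-DG libraries. Every 2-DG library was above every control (groups did not overlap for 2.93% of all genes), and the log2 fold change was 0.89 ± 0.20, with an unadjusted p of 0.000961 and an adjusted p of 0.494 in edgeR, the smallest among the 89 pathway genes and still above the threshold. Of the 10 genes of collagen prolyl and lysyl hydroxylation, P4hb and P3h1 (0.62 ± 0.25, adjusted p 0.656), a prolyl 3-hydroxylase, were under an unadjusted p of 0.05, both higher in 2-DG, beside 2.42% of all genes higher at that p, and the median was 0.33. Plod2 (-0.54 ± 0.35), a lysyl hydroxylase, and P4ha3 (-0.05) had the smallest p among those below 0.

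**Figure D4:**
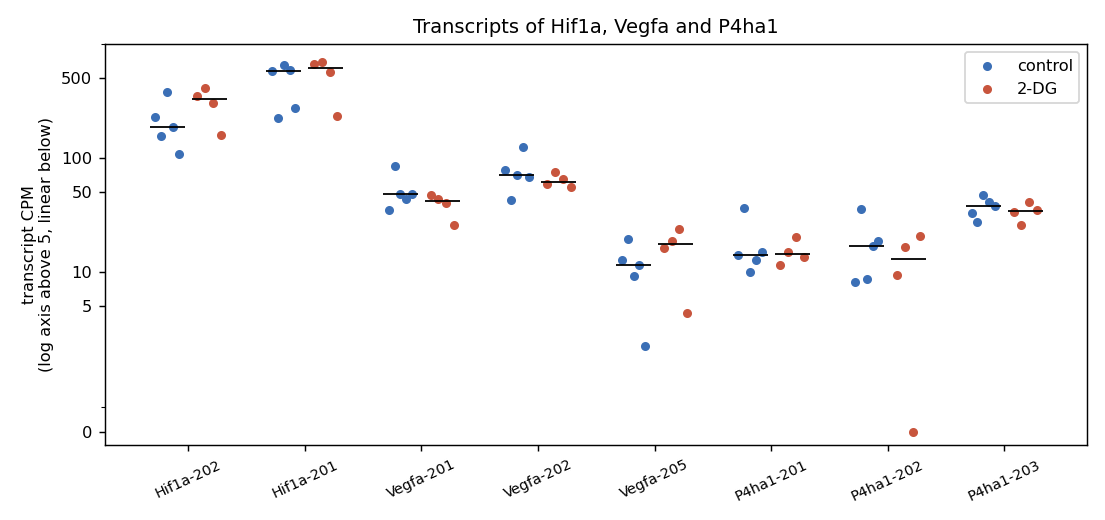
CPM of the transcripts of Hif1a, Vegfa and P4ha1 that held at least 5% of their gene, in each control and 2-DG library, with lines at group medians (axis logarithmic above 5 and linear below). The groups overlap for all 8 transcripts shown.

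Over all members, 32 transcripts passed the filter, and 20 of them held at least 5% of their gene. None of the 20 was called, with 0 at an adjusted and 0 at an unadjusted p of 0.05 in edgeR, against 0.0% and 3.45% of the 62900 transcripts tested. Their log2 fold changes ran from -0.60 to 0.54, and each overlapped between the groups. Only 1 transcript was named for each of Epas1, Adm, Egln3, Ndrg1 and Ddit4, so that a shift between isoforms could be examined for the other 5 genes.

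HIF targets outside the 10 members gave the same count at the adjusted threshold in edgeR, 0 of 27 outside glycolysis and 0 of 19 in glycolysis. Their medians were -0.03 and 0.00. Since 0.0% of the 21049 genes passed in that fit, any list had to give 0 there. The lists were counted in that fit alone. Errfi1, a feedback inhibitor of the EGF receptor, was at 163, 56.8, 227, 272 and 204 CPM in control and at 76.3, 72.1, 72 and 144 CPM in 2-DG libraries (log2 fold change -1.02 ± 0.42, adjusted p 0.658 in edgeR). Control replicate 2 was the lowest of all libraries, and every 2-DG library was below the other 4 controls. Plod2 came next among those below 0, and Bnip3l and Plod1 (0.58 ± 0.31) had the smallest p among those above 0.

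Among the glycolytic targets, Pfkfb3, which makes the activator of phosphofructokinase, was at 177, 139, 194, 349 and 376 CPM in control and at 129, 125, 121 and 152 CPM in 2-DG libraries. 2-DG replicates 1 to 3 were below every control and 2-DG replicate 4 was above only control replicate 2. Its log2 fold change was -0.91 ± 0.32, with an unadjusted p of 0.0167 and an adjusted p of 0.602 in edgeR. Slc16a3, the lactate exporter MCT4, was at -0.56 ± 0.28 (adjusted p 0.713), and Hk1 and Pgk1 were each at 0.28. Over the 89 genes of the 8 lists, 3 were higher and 3 lower at an unadjusted p of 0.05 and 0 passed the adjusted threshold. These 6 genes are 6.74% of the lists, near the 7.25% of all genes under that p. The lower ones were Errfi1, Pfkfb3 and Ddit4l, and the higher ones Ramp2, P4hb and P3h1.

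**Figure D5:**
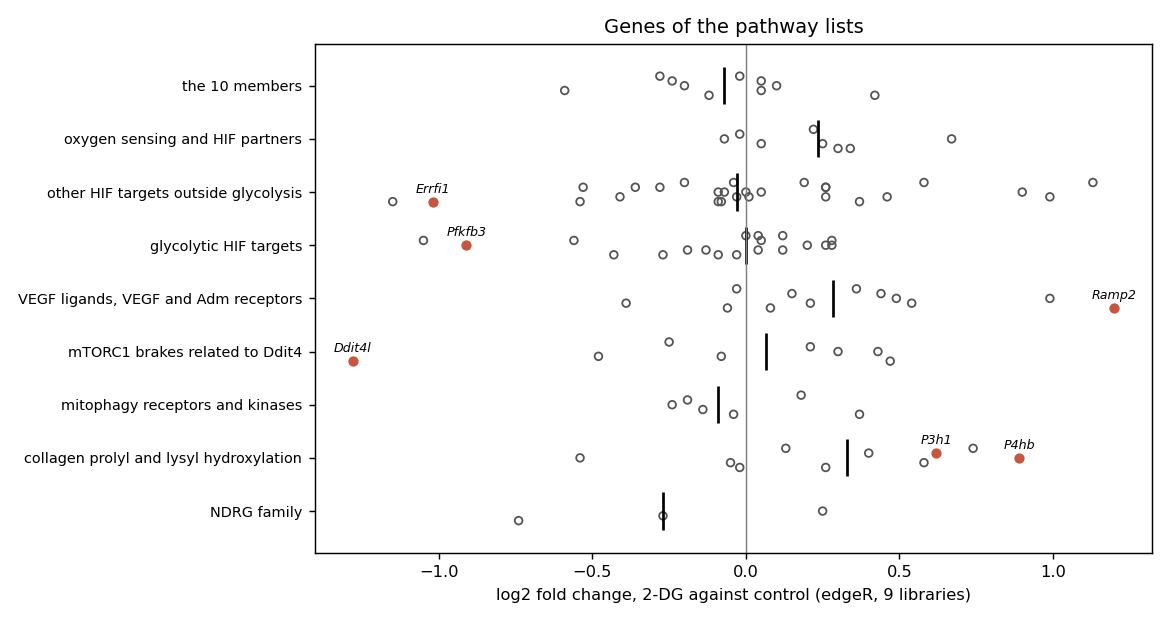
Log2 fold change of 2-DG against control (edgeR, 9 libraries) for the 10 members and the 89 genes of 8 pathway lists, 1 point a gene and list, with filled points at an unadjusted p under 0.05 and lines at the list medians. The 10 members have a median of -0.07 and no filled point, and the lists hold 6 named filled points.

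The members divided by the libraries in which they were high. Control replicates 4 and 5 and 2-DG replicate 4 were the 3 highest libraries for 4 of the 10 members, Epas1, Adm, Egln3 and Ndrg1, an order shown by 8.8% of the genes tested. For Bnip3 and Ankrd37 the same libraries were the 3 lowest, as for 7.57% of the genes. These 3 libraries also had the highest sums of the 7 endothelial markers and the highest Vegfc, Pgf, Flt4 and Nrp2, but not the highest Kdr. The marker sum did not order the remaining libraries in the same way, since 2-DG replicate 3, with a sum of 1115 CPM, had less Adm and Egln3 than control replicate 1, with a sum of 251 CPM. The part of the endothelial signal in these orders was not tested. Hif1a and Vegfa had their lowest values of the group in control replicate 5 and 2-DG replicate 4, and P4ha1 and Ddit4 followed neither order. These orders were noticed after the values were seen and are given as a description of 9 libraries.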

How the data were processed

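The authors deposited unscaled estimated counts for 55487 genes and 142699 transcripts. The submitters' processing notes name kallisto and GRCm38, with no version. The authors also deposited a CPM signal table of 12568 genes and a table of their own comparison with log2 fold changes and p-values, which was not used. Libraries were made from 4 ng of total RNA with 13 PCR cycles and read as pairs of 101 bases.

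Estimated counts were rounded and tested with edgeR 4.0.16 (R 4.3.3: filterByExpr, TMM, glmQLFit with legacy=TRUE and robust=FALSE, glmQLFTest, group only, all 9 libraries), with Benjamini-Hochberg adjustment over 21049 genes or 62900 transcripts. Each standard error was taken as the absolute log2 fold change over the root of its F value. CPM used TMM-scaled library sizes. Levels per kb used transcript CPM divided by transcript length. Alternatives used DESeq2 1.42.0 and limma 3.58.1, and the scripts were tested on simulated data. Totals of 11318087 to 51802230 counts set the precision, and p-values measure only the spread between these samples.

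The members and lists were chosen with earlier results of these data known. The text names all 10 members, from each list up to 2 genes of smallest p in each direction and any gene behind a count of 5 or fewer, for Hif1a, Epas1, Vegfa and Adm the 3 protein-coding genes of highest Pearson r, and transcripts with at least 5% of their gene. Log2 CPM for these r used a prior count of 2. Each r is among the 3 highest of 16010 genes over 9 libraries, so a high value is partly given by the choice. The r expected from such a choice is not given here. Coordinates are from GENCODE M21 on GRCm38, and promoters from RefSeq. Marker lists summed CPM of 3 to 7 genes. Some genes first placed on the pathway lists are not reported here and are not in the counts.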

Additional observations from a re-analysis of the deposited data

Results flagged for a closer look

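In 20 groups of libraries (10 members in each group, on log2 CPM), 2 held a library that stood apart by Dixon's criterion, which chance gives in about 1 in 20 groups. Vegfa in 2-DG replicate 4 was at 75.2 CPM, whereas the other 2-DG libraries were at 170 to 189 CPM (gap over range 0.882). Ndrg1 in the same library was at 474 CPM, whereas the others were at 187 to 212 CPM (gap over range 0.866). Adm in this library, at 167 CPM beside 5.52 to 11.6 CPM, did not reach the critical value because the other values were also spread on the log scale.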

How the results depend on the processing

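The low replicate number and the spread within the groups limit what can be seen: with standard errors of 0.20 to 0.99, moderate changes of most members were not detectable. No member passed the adjusted threshold in edgeR under any scaling or filter or without any 1 library, nor in DESeq2 on all 9 libraries. With limma-voom and sample quality weights 2 passed it and 3 were under an unadjusted p of 0.05 (26.0% of all genes were), and with the endothelial covariate, added after the data were seen, 3 were under that p (17.4% of all genes). Hif1a, Egln3, P4ha1 and Ddit4 kept their direction in every alternative.

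Directions near 0 turned as follows. Adm went from 0.05 to -0.07 with upper-quartile scaling, -0.20 with library size only, -2.34 with limma-voom, -1.13 and -1.08 with the deposited CPM (pseudocounts 0.5 and 1) and -1.73 with the covariate. Epas1 went to -0.04, -0.01, -0.07 and -0.09 with upper-quartile scaling, library size, limma-voom and the covariate. Vegfa went to -0.04 with the deposited CPM at either pseudocount. Bnip3 went to 0.02 without a filter, 0.09 with limma-voom and 0.21 with the covariate, and Ankrd37 to 0.27 with limma-voom and 0.12 with the covariate. The cause was not tested.

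Without 1 library, 0 to 2 members were under an unadjusted p of 0.05 and the members' median was -0.18 to -0.01. The ranges were -0.10 to 0.30 for Epas1, -0.03 to 0.33 for Vegfa, -2.46 to 0.61 for Adm, -0.42 to 0.24 for Bnip3, -0.31 to 0.27 for Ankrd37 and -0.63 to 0.02 for Ndrg1. Among transcripts they were -0.19 to 0.30 for Epas1-201, -2.58 to 0.71 for Adm-201, -0.50 to 0.22 for Bnip3-201, -0.60 to 0.71 for Bnip3-203, -0.40 to 0.63 for Ankrd37-201, -0.51 to 0.34 for Ankrd37-204, -0.70 to 0.06 for Ndrg1-201 and -0.40 to 0.22 for P4ha1-201.

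With the replicate number as a block, 0 members passed at either threshold and their median was -0.19, with Vegfa at -0.08 and Adm at -0.74. Deviations of same-numbered libraries correlated at 0.451, -0.155, 0.102 and 0.205 for numbers 1 to 4. Libraries of different numbers were not compared, so these values do not settle whether the numbers pair the samples.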
